A study of Mus musculus with 30 samples.

Results

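Transcripts of excitatory cortical neurons were examined in RNA-seq libraries of FACS-sorted inhibitory interneurons from the mouse medial prefrontal cortex. Slc17a7, Camk2a, Neurod2, Neurod6, Tbr1 and Nrgn were taken by gene symbol from the deposited expression table, 6 of its 23993 genes, and all 6 were found. The table gives FPKM, a fragment count divided by transcript length and by the size of the library, for 24 libraries.

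All mice were young adults, heterozygous for a Cre driver and carrying the Ai9 reporter, in which Cre switches on the red protein tdTomato. The paper names C57BL/6 only for wild-type mice added to its behavioral tests. The Sst-Cre driver marks cells that express or once expressed somatostatin, and Pvalb-Cre marks cells that express parvalbumin. The libraries came from nonstressed Sst females (7), nonstressed Sst males (7), Sst males exposed to 14 days of chronic unpredictable stress (CUS, 3) and nonstressed Pvalb males (7). A further 6 labelled samples (1 nonstressed Pvalb female, 3 CUS Sst females and 2 CUS Pvalb females) were not analysed here. Of the male Sst controls, 4 (SST0-M and SST1-M, SST3-M, SST4-M) have running numbers as titles, as the female and Pvalb libraries do (SST-F has none), and SS04031R, SST040241L and SST04241LL have long numbers, as the 3 CUS libraries do. They are called numbered and dated.

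Pyramidal neurons release glutamate and form most of the long-range output of the cortex, while interneurons release GABA and act locally. The 2 lineages arise from different parts of the embryonic forebrain, under different transcription factors. Slc17a7 encodes VGLUT1, which loads glutamate into synaptic vesicles. Camk2a encodes the alpha subunit of calcium/calmodulin-dependent kinase II, an abundant postsynaptic enzyme of excitatory synapses, and Nrgn encodes neurogranin, a postsynaptic protein that binds calmodulin. Neurod2 and Neurod6 are basic helix-loop-helix factors and Tbr1 is a T-box factor of postmitotic glutamatergic neurons. All 6 are widely used to separate excitatory from inhibitory cortical neurons.

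Several features of the libraries bear on every value. The values of PV0-M and PV2-M almost coincided, with an SD of their log2 ratio over genes of 0.017 against 0.225 in the next closest pair, as were SST0-M and SST1-M with 0.0212 against 0.267. Each pair was averaged and counted as 1 sample, which left 22 samples. PV1-M, PV4-M and PV5-M, labelled male, had Xist above 10 FPKM, against their label, with 333, 303 and 300 FPKM. The female Sst libraries had 479 to 644 FPKM. PV3-M and PV6-M had 6.64 and 5.12 FPKM, and all other male libraries at most 0.446 FPKM. The read depth of each library is not known from the values used, which hold no counts. The number of genes above 0.4 FPKM was 12124 to 14255 per library. The FPKM of all genes summed to 276023 to 321207 in the female Sst and 321658 to 343714 in the Pvalb libraries. Sums were 311276 to 432075 in numbered Sst males, 681118 to 959187 in dated controls and 780908 to 1311420 in CUS libraries. The main tests did not rescale the libraries, so FPKM of dated and CUS libraries rests on a higher total than that of the others. The mean log2(FPKM + 1) of 14 microglia markers was between 7.02 and 9.07 in the 22 samples, above that of 14 pan-neuronal genes, which was between 1.76 and 3.75.

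The defining markers of the sorted cells were low. Gad1 and Gad2, which make GABA, and Slc32a1, which loads it into vesicles, summed to between 0.207 and 7.53 FPKM per library. Sst was between 12.3 and 30.5 FPKM in the 7 Pvalb libraries and between 0 and 49.3 FPKM in the nonstressed Sst libraries, and its mean was lower in the Sst samples (log2 fold change -2.05, limma adjusted p = 0.0488). Pvalb was between 0.882 and 5.07 FPKM in the Pvalb libraries and between 0 and 1.93 FPKM in the nonstressed Sst libraries (log2 fold change -1.42, limma adjusted p = 0.00442). In bulk samples, fewer cells of a type and less RNA per cell cannot be told apart.

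Slc17a7 exceeded the summed Gad1, Gad2 and Slc32a1 level in 23 of 24 libraries. The ratio of Slc17a7 to that sum was between 0.803 and 2.06 in the female Sst libraries, between 1.77 and 5.52 in the male Sst controls, between 3.80 and 4.81 in the CUS libraries and between 2.39 and 9.504 in the Pvalb libraries. SST1-F was the library in which the glutamate transporter lay below the GABA genes. The highest GABA sum, 7.53 FPKM, was that of SST-F, which also had the highest Slc17a7 of the Sst libraries, 9.21 FPKM.

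**Figure D1:**
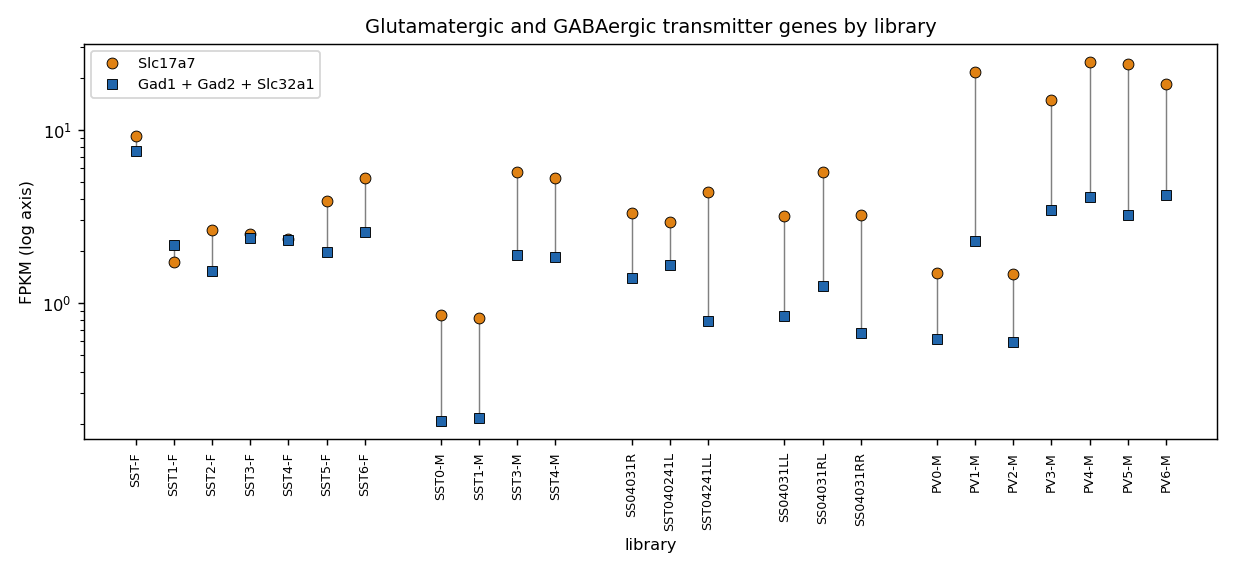
FPKM on a log axis in each of the 24 libraries, with circles for Slc17a7 and squares for the sum of Gad1, Gad2 and Slc32a1. The circle lies above the square in 23 of 24 libraries, and both symbols are lowest in SST0-M and SST1-M.

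On GRCm38.p6, the RefSeq build that corresponds to the authors' mm10, Slc17a7 lies at chr7:45163921-45176139 on the plus strand and Neurod2 at chr11:98325415-98329645 on the minus strand. Neurod6 lies at chr6:55677818-55681263, Nrgn at chr9:37544493-37552745 (both minus strand) and Tbr1 at chr2:61802863-61814114 (plus strand). Camk2a overlaps Mir7220, Mir6982 and Gm46632, and Slc17a7 overlaps Mir7055, so reads in the shared stretches may count for either gene.

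The 250 bases upstream of the start of Slc17a7 and of Neurod2 are shown because both genes differed between the Sst and Pvalb samples below and NEUROD factors bind E-boxes, the motif CANNTG. Capitals mark each E-box, which reads as the same motif on both strands, and the sequences are RefSeq's, 5′ to 3′ on the gene's strand, at chr7:45163671-45163920 and chr11:98329646-98329895.
Slc17a7: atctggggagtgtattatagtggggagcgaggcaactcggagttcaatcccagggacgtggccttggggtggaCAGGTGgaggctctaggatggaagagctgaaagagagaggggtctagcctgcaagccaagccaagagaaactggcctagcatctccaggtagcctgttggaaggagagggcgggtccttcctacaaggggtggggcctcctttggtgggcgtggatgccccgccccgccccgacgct
Neurod2: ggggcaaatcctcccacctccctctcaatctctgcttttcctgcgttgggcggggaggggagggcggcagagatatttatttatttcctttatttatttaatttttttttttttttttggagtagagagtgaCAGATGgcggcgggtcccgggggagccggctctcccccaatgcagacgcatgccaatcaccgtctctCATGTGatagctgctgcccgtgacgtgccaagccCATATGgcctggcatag
The Slc17a7 window held 1 E-box and the Neurod2 window 3, and those of Neurod6, Tbr1 and Nrgn held 2, 1 and 1. The Tbr1 window lies upstream of a start that RefSeq lists inside the gene (chr2:61804203-61804452), not of the outermost start. Of 27025 promoters of this length, 66.0% held at least 1. The form CAGATG, searched on both strands and counted among the E-boxes, was in the windows of Neurod2 and Nrgn and in 14.5% of all promoters. The windows had 45.2% (Tbr1) to 61.2% (Slc17a7) G and C, against a median of 52.0% over all promoters.

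Camk2a was the most abundant member in 22 of 24 libraries. It was between 435 and 499.7 FPKM in PV1-M, PV3-M, PV4-M, PV5-M and PV6-M, and 21.1 and 21.3 FPKM in PV0-M and PV2-M. In the Sst females it was 215.8 FPKM in SST-F and between 40.4 and 50.2 FPKM in the other 6. The numbered Sst males had 46.3 (SST0-M), 46.7 (SST1-M), 93.2 (SST3-M) and 125.8 FPKM (SST4-M). The dated males had 20.3, 33.8 and 34.7 FPKM and the CUS males 28.3, 40.8 and 25.2 FPKM. Thus 5 Pvalb libraries lay above every Sst library, and the remaining pair lay below all but SS04031R.

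Slc17a7 was high in the same 5 Pvalb libraries. Its values were 14.8 FPKM (PV3-M), 18.5 (PV6-M), 21.7 (PV1-M), 24.04 (PV5-M) and 24.7 (PV4-M) in 5 Pvalb libraries, and 1.49 and 1.48 FPKM in PV0-M and PV2-M. In the Sst females it was between 1.73 and 9.21 FPKM, with a median of 2.65. The lowest values were 0.854 and 0.814 FPKM in SST0-M and SST1-M, while SST3-M and SST4-M had 5.67 and 5.25 FPKM. Dated males (2.92, 3.31 and 4.37 FPKM) and CUS males (3.18, 3.23 and 5.72 FPKM) overlapped.

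Nrgn did not have its highest values in Pvalb libraries. SST0-M and SST1-M had 57.2 and 57.8 FPKM, above the 20.8 to 29.4 FPKM of the 5 Pvalb libraries and the 28.1 FPKM of SST-F. In that pair Nrgn exceeded Camk2a, with a ratio of up to 1.24, whereas the lowest ratio was 0.0417 and the median over the 24 libraries 0.136. PV0-M and PV2-M had 3.48 and 3.54 FPKM. The other Sst libraries were between 2.72 FPKM (SST1-F) and 17.9 FPKM (SS04031RL, a CUS male).

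The 3 transcription factors were near the detection limit in many libraries. Neurod2 was above 0.4 FPKM in 11 of 24 libraries and Neurod6 in 9, while Tbr1 was above it in 20. Neurod2 was 5.86, 7.05 and 7.51 FPKM in PV1-M, PV4-M and PV5-M, which had high Xist, and 1.70 and 2.12 FPKM in PV3-M and PV6-M. It was at most 1.07 FPKM in any Sst library, and listed at 0 in PV0-M, PV2-M, SST1-F, SST3-F and SST4-F. A value of 0 in such a table can also be a failed estimate.

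Neurod6 was between 1.47 and 2.87 FPKM in the 5 Pvalb libraries and 2.94 FPKM in SST-F. It was 1.13 FPKM in SS04031R, 0.589 in SS04031RL and 0.573 in SST2-F, at most 0.379 FPKM in the remaining Sst libraries, and listed at 0 in SST3-F, SST4-F and SST5-F. Tbr1 was highest in SST-F (5.74 FPKM) and PV6-M (4.84 FPKM). The other 4 high Pvalb libraries had 2.20 to 3.33 FPKM, SST0-M and SST1-M 2.33 and 2.27 FPKM, SST4-M 1.54 and SST4-F 1.49 FPKM, and the others were under 1 FPKM. For Tbr1 the Pvalb and the numbered Sst male libraries therefore overlapped, as those of Neurod2 did only through PV0-M and PV2-M.

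**Figure D2:**
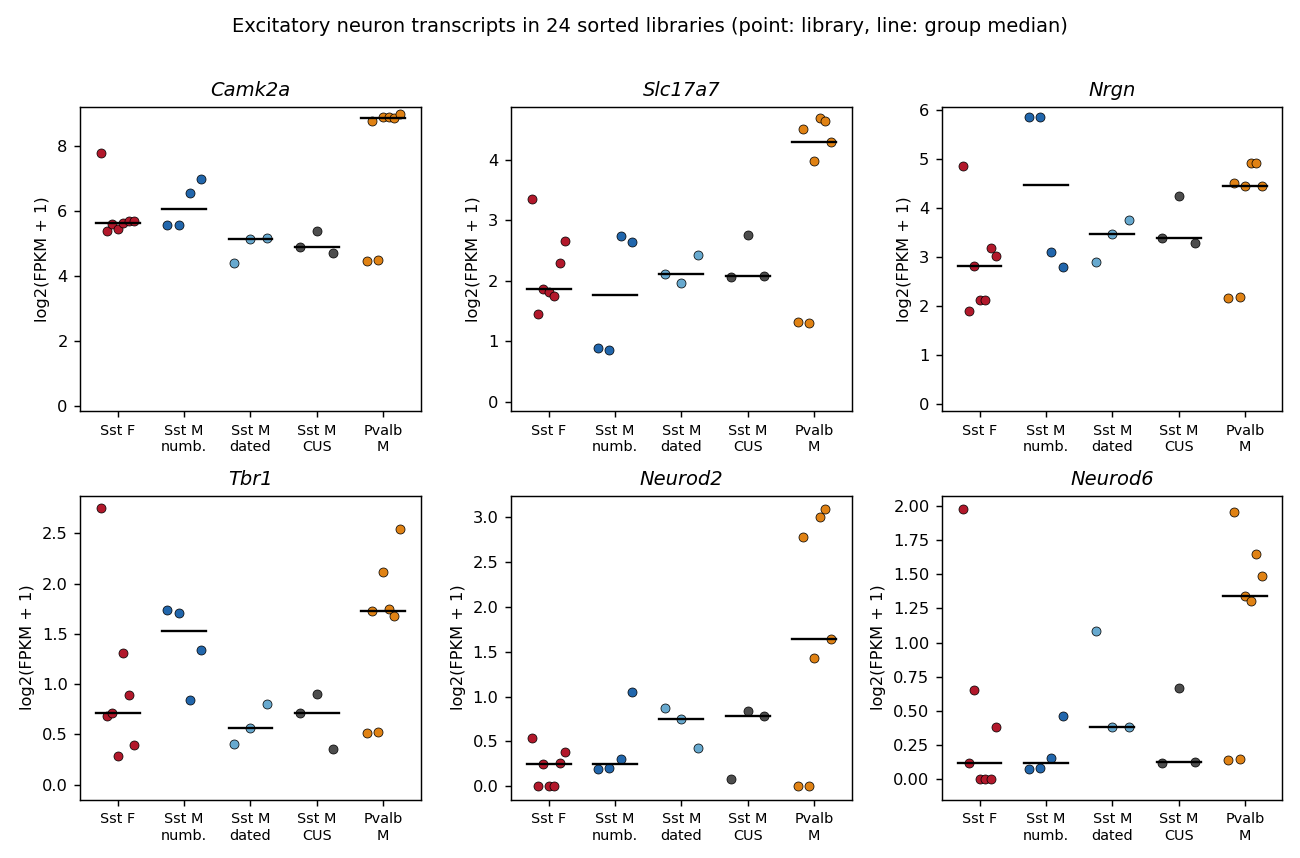
Each panel gives log2(FPKM + 1) of 1 gene for 24 libraries, with 1 point a library and a line at the group median. Camk2a is highest in 5 Pvalb libraries, while PV0-M and PV2-M lie at 21.1 and 21.3 FPKM, and SST-F is the high female point (215.8 FPKM).

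Among the Sst males, the ratio of Camk2a to Slc17a7 was lower in the dated than in the numbered libraries, while dated and female libraries overlapped. Camk2a per Slc17a7 was between 6.12 and 11.6 in the dated male controls and between 7.14 and 8.91 in the CUS males, against 16.4 to 57.3 in the numbered males, 9.502 to 23.4 in the females and 14.2 to 31.7 in the Pvalb libraries. Slc17a7 relative to Snap25, a presynaptic protein of all neurons, was between 0.258 and 0.383 in the dated controls and between 0.2505 and 0.276 in the CUS males. All other libraries were lower, between 0.0149 and 0.188. Snap25 itself was 11.3 to 12.7 FPKM in the dated controls and 47.5 to 69.7 FPKM in the numbered males, while their Slc17a7 values overlapped. The ratios were not tested. The dated and numbered libraries also differed in Tyrobp, a microglia gene, by a log2 fold change of -3.74 (limma adjusted p = 0.0115), and the part of microglia RNA in these ratios was not tested.

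The study compared the Sst and Pvalb lines to ask how the interneuron subtypes differ. All 6 excitatory transcripts had lower means in the 13 Sst control samples than in the 6 Pvalb samples, and 3 of the 6 passed the test. Mean Camk2a was 65.2 FPKM in Sst and 393.5 FPKM in Pvalb samples, mean Slc17a7 3.84 and 17.5 FPKM, and mean Neurod2 0.342 and 4.04 FPKM. With limma on log2(FPKM + 1), the log2 fold change was -2.38 for Camk2a (SE 0.54, adjusted p = 0.0116), -1.75 for Slc17a7 (SE 0.40, adjusted p = 0.0121) and -1.60 for Neurod2 (SE 0.33, adjusted p = 0.00664). For each of these 3 genes, 13 of 13 Sst samples lay below the Pvalb median and 5 of 6 Pvalb samples above the Sst median. Over all 14524 genes tested, 654 or 4.50% were called lower in Sst, and the median log2 fold change was 0.00 against -1.31 for the 6 members.

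The other 3 did not pass. Neurod6 had a log2 fold change of -0.88 (SE 0.28, limma adjusted p = 0.0537), Nrgn -1.01 (95% interval -2.02 to -0.01, limma adjusted p = 0.197) and Tbr1 -0.74 (95% interval -1.41 to -0.08, limma adjusted p = 0.149). In two-sided exact permutation tests, unadjusted over the 24 tests of 6 genes in 4 comparisons, p was 0.00317 for Camk2a, 0.00273 for Slc17a7, 0.00155 for Neurod2, 0.0119 for Neurod6, 0.0481 for Tbr1 and 0.0794 for Nrgn.

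A few samples set these calls. Without PV0-M and PV2-M all 6 members were called lower in Sst (background 7.89%), and Camk2a changed by -3.11, Slc17a7 by -2.27, Neurod2 by -2.0, Nrgn by -1.43, Neurod6 by -1.11 and Tbr1 by -0.98 on the log2 scale. Without SST-F 5 members were called (background 5.26%), with Nrgn the exception. No member was called with male Sst controls alone (6 against 6, background 2.15%), where 5 had an unadjusted p under 0.05, or without PV1-M, PV4-M and PV5-M (13 against 3, background 0.0758%), where 2 did. The log2 fold changes were -2.51 for Camk2a (limma adjusted p = 0.0631) and -1.77 for Slc17a7 (limma adjusted p = 0.0712) with male Sst controls alone, and -1.68 (limma adjusted p = 0.37) and -1.04 (limma adjusted p = 0.425) without the 3 high-Xist libraries. Neurod2 moved from -1.60 in the main test to -0.64 without those 3 libraries.

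**Figure D3:**
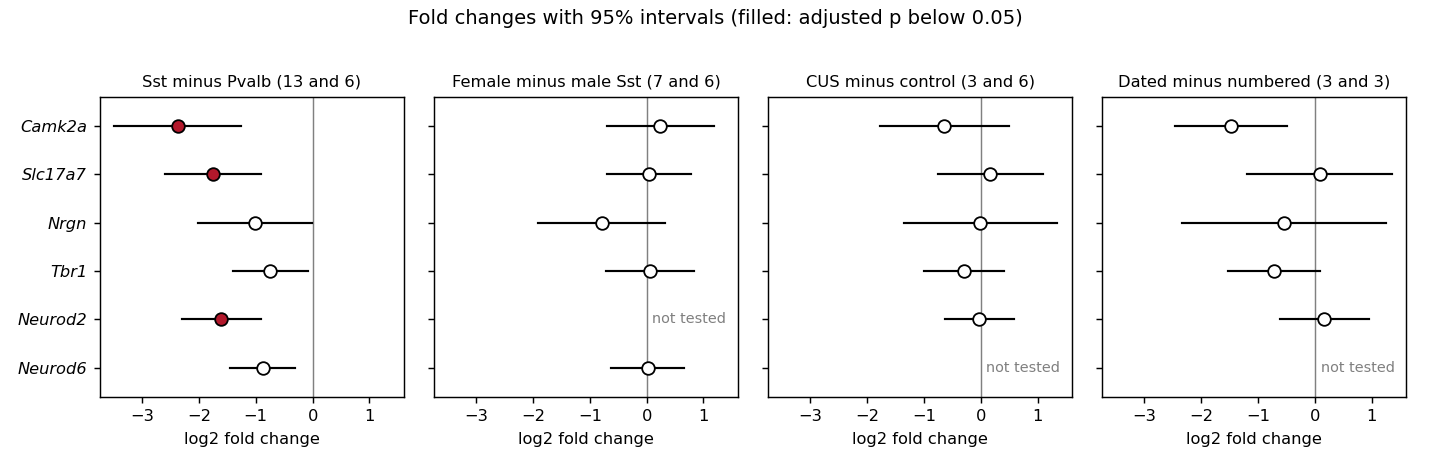
Log2 fold changes of the 6 genes with 95% intervals in 4 comparisons, with the number of samples in each title. Filled points passed an adjusted p of 0.05 in limma, which Camk2a (-2.38), Slc17a7 (-1.75) and Neurod2 (-1.60) did in the comparison of Sst with Pvalb, and genes marked as not tested had a mean of 0.4 FPKM or less.

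Other genes of pyramidal neurons and of the calmodulin pathway were also among the calls. Of 18 further pyramidal-enriched transcripts 13 were tested, 6 were called lower in Sst and none higher, and 11 of the 13 had a log2 fold change below 0 (median -0.85). Hpca, the calcium sensor hippocalcin, fell by 2.24 on the log2 scale (limma adjusted p = 0.0069), Slc30a3, the zinc transporter of glutamatergic vesicles, by 1.57 (0.00515), Arpp21 by 1.13 (0.0227) and Syt6, a synaptotagmin, by 1.12 (0.00586). Arpp21 was the most abundant gene of that list, between 2.29 and 31.2 FPKM. Slc17a6, which encodes VGLUT2, was not above 0.402 FPKM in any library.

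Of 24 calmodulin and CaMKII partners, all tested, 9 were called lower in Sst and none higher, and 20 had a log2 fold change below 0 (median -0.54). Pcp4, a calmodulin-binding peptide, fell by 2.43 (limma adjusted p = 0.0185), the postsynaptic scaffold Shank1 by 2.38 (0.0161), Camk2b, the beta subunit of the kinase, by 1.94 (0.00442) and Gap43, a calmodulin-binding protein of axons, by 1.84 (0.0264). Calm2, a calmodulin gene and the most abundant of the list, was between 211 and 655 FPKM and was not among the calls. Among 15 further transcription factors of the pallium and cortical layers, 11 were tested and 2 were lower in Sst, among them Bcl11b by 0.95 (limma adjusted p = 0.0102), while Mef2c, the most abundant, was between 40.6 and 128 FPKM.

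Some general neuronal transcripts were lower in Sst as well. Of 14 pan-neuronal genes 4 were called lower and 10 did not pass, and 13 had a log2 fold change below 0. The calls were the synaptic vesicle gene Syn1 by 2.18 (limma adjusted p = 0.00377), Snap25 by 1.87 (0.0224), Rbfox3 (NeuN) by 1.79 (0.0216) and the RNA-binding Elavl4 by 0.79 (0.0388), and the list median was -0.89. With male Sst controls alone 4 pyramidal, 5 calmodulin and 2 pan-neuronal genes were called, and without SST-F, PV0-M and PV2-M 9, 13 and 8 were. In the GABAergic list 13 of 16 genes were tested, 2 were lower in Sst (Sst and Pvalb, as above) and the median was -0.23.

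Of 10 endothelial and pericyte markers 7 were called higher in Sst, against 3.30% of all genes tested, and 0 of 10 were called by limma with male Sst controls alone (1.26% of all genes higher), where 6 had an unadjusted p under 0.05 and the list median was 1.69 against 2.07 with both sexes. The 7 included Ly6c1 (log2 fold change 2.93, limma adjusted p = 0.032), Flt1 (2.72, 0.00579), Cldn5 (2.51, 0.00783) and Kcnj8 (2.09, 0.0352). Their mean log2(FPKM + 1) was 1.02 to 3.63 in the Pvalb samples, with 3.63 in the averaged PV0-M and PV2-M, and 1.26 to 4.27 in the Sst controls. Rgs5, a pericyte gene, was the most abundant, between 0 and 106 FPKM. The microglia mean was 8.62 to 9.07 in the Pvalb samples and 7.29 to 8.65 in the Sst controls, and of the 14 markers only C1qc, the most abundant at 385 to 1952 FPKM, was called (-1.09, limma adjusted p = 0.0151).

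Astrocyte and oligodendrocyte lists gave few calls. Of 10 astrocyte markers Slc1a3 was higher in Sst (log2 fold change 0.69, limma adjusted p = 0.0428), and Slc1a2 was listed at 0 in all Sst controls. Those 0 values can also be failed estimates. Aldoc, the most abundant astrocyte marker, was between 189.9 and 911.8 FPKM. Of 11 oligodendrocyte markers Mbp was lower in Sst (-1.08, limma adjusted p = 0.0251). The part of these cell types in the difference of the excitatory transcripts was not tested.

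Across the 22 samples, the mean of the 6 members followed the mean of the pan-neuronal genes (Pearson's r = 0.978, Spearman's rho = 0.916), and did so in the 16 Sst samples alone (r = 0.925, rho = 0.8). For the calmodulin partners r was 0.97, for the further pyramidal transcripts 0.96, for the GABAergic list 0.712 and for the microglia list 0.699. The samples form separate clusters and share library composition, so these values are descriptions. Without the Pvalb samples they were 0.889, 0.852, 0.546 and 0.318. Spearman's rho in those 16 Sst samples was 0.729, 0.503, -0.038 and 0.315 in the same order, so the GABAergic list showed no rank correlation. Between single members r ranged from 0.506 (Neurod2 and Tbr1) to 0.904 (Slc17a7 and Camk2a) over all samples, and from 0.028 (Neurod2 and Tbr1) to 0.761 (Camk2a and Tbr1) without Pvalb.

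The order of samples by the mean log2(FPKM + 1) of the members ran from 1.44 in the averaged PV0-M and PV2-M to 4.14 in PV5-M. The 5 other Pvalb samples were between 3.70 and 4.14, SST-F was at 3.54 and the next sample, SST4-M, at 2.55. The remaining Sst samples, CUS included, were spread without a comparable gap between 1.59 and 2.46. Of 14274 genes compared, those most alike to the member mean over the 22 samples were Rph3a (r = 0.971), Rbfox3 (0.97), Bsn (0.97), Cdr1 (0.969) and Cplx1 (0.965). Rph3a, Bsn and Cplx1 encode presynaptic proteins, and reads of Cdr1 cannot be told apart here from its antisense transcript.

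**Figure D4:**
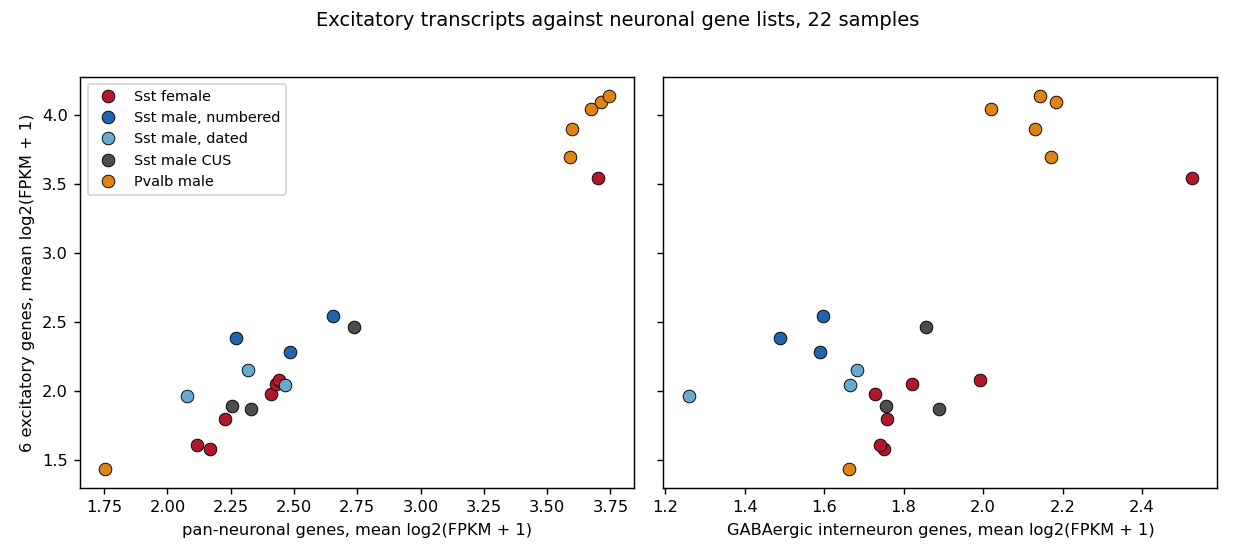
Mean log2(FPKM + 1) of the 6 excitatory genes (vertical axis) against that of 14 pan-neuronal genes (left) and 16 GABAergic genes (right), 1 point a sample, coloured by group. On the left the points lie along a line (r = 0.978) with 5 Pvalb samples and SST-F at the upper end, and on the right they spread more widely (r = 0.712).

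The study asked whether Sst interneurons differ between the sexes. None of the 5 members tested differed between 7 female and 6 male Sst control samples in limma at an adjusted p of 0.05, and none had an unadjusted p under 0.05, while 11.7% of all 14498 genes were called. The log2 fold change, female minus male, was 0.24 for Camk2a (95% interval -0.70 to 1.18), 0.04 for Slc17a7 (-0.71 to 0.78), 0.06 for Tbr1 (-0.71 to 0.83), 0.02 for Neurod6 (-0.62 to 0.66) and -0.79 for Nrgn (-1.91 to 0.33). Differences within these intervals were not excluded. The median over the 5 was 0.04 and that over all genes 0.07.

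Neurod2 had a mean of 0.164 FPKM in females and 0.55 FPKM in males and did not pass the filter on low values. The exact permutation test, two-sided and unadjusted, gave p = 0.0361 for Neurod2, and the values overlapped, since the highest female value of 0.456 FPKM (SST-F) exceeded 3 of the 6 male values.

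Against the males of each title kind no member was called in limma either. The number with an unadjusted p under 0.05 was 0 against numbered and 1 against dated males. The female libraries are grouped as numbered, so against dated males sex and title kind cannot be told apart. Against the numbered males (3 samples, background 3.41%) Camk2a had a log2 fold change of -0.50, and against the dated males (3 samples, background 41.5%) of 0.98 (limma adjusted p = 0.0974). Tbr1 was at -0.30 and 0.41 and Neurod6 at 0.21 and -0.17, so the sign of these 3 depended on which males were used. Nrgn was lower in females in both, with -1.06 and -0.52, neither of which passed the test.

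Related genes gave few calls between the sexes. Rorb, a layer transcription factor, was higher in females (log2 fold change 0.99, limma adjusted p = 0.0291), and Ptk2b, a calcium-activated kinase, was lower (-1.14, 0.0209). Those were the calls among 10 layer factors and 11 pyramidal transcripts tested. Of the 24 calmodulin partners, Camkk1 (-0.83, limma adjusted p = 0.0367) and Camk2d (-0.56, limma adjusted p = 0.0458), both calmodulin-dependent kinases, were lower in females. Of 14 pan-neuronal genes none was called in limma, and 1 had an unadjusted p under 0.05. Sst was higher in females (2.38, limma adjusted p = 0.0185), and of 14 microglia markers Cx3cr1 (-1.40, limma adjusted p = 0.0101), Siglech (-1.04, 0.0228) and Csf1r (-0.86, 0.0313) were lower. The part of microglia in the values of Ptk2b and the other kinases was not tested.

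Chronic stress was compared in Sst males, 3 CUS samples against 6 controls. None of the 5 members tested was called in limma and none had an unadjusted p under 0.05, and of all 14319 genes 1, or 0.00698%, was called, with 1070 under an unadjusted p of 0.05. The log2 fold change, CUS minus control, was -0.64 for Camk2a (95% interval -1.78 to 0.50), 0.17 for Slc17a7 (-0.75 to 1.10), -0.29 for Tbr1 (-0.99 to 0.41), -0.03 for Neurod2 (-0.64 to 0.58) and -0.01 for Nrgn (-1.35 to 1.34). Neurod6 did not pass the filter, with means of 0.256 FPKM in CUS and 0.382 FPKM in control samples. Two-sided exact permutation tests gave p between 0.357 and 0.857 for the 6 genes, where 0.0119 is the smallest this design allows.

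All CUS libraries have dated titles. Against the 3 dated controls, Camk2a had a log2 fold change of 0.09 (SE 0.26), and 0 of 6 members were called by limma (background 0.00705%), also without adjustment. Against the 3 numbered controls it was -1.38 (limma adjusted p = 0.0592), and 0 of 5 were called by limma (background 16.1%), with 1 under an unadjusted p of 0.05. Both CUS and dated libraries thus had low Camk2a next to the numbered males. None of the genes in the layer factor, pyramidal, calmodulin, pan-neuronal and GABAergic lists was called by limma in the comparison with all 6 controls, with 1, 0, 1, 1 and 3 under an unadjusted p of 0.05. The microglia mean was 7.02 to 7.22 in the CUS samples and 7.29 to 8.65 in the male controls, and its part in these values was not tested. Slc1a2 was the single call, listed at 0 in every male control and at 779 to 851 FPKM in the CUS libraries. Such 0 values can also be failed estimates.

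The title kinds were compared directly, 3 dated against 3 numbered male controls. Camk2a was 20.3 to 34.7 FPKM in the dated and 46.5 to 125.8 FPKM in the numbered samples, and Tbr1 0.325 to 0.741 and 0.798 to 2.30 FPKM, and for both genes the groups did not overlap. None of 5 members tested passed in limma, 1 (Camk2a) had an unadjusted p under 0.05, and 4.11% of all 14230 genes were called. The log2 fold change of Camk2a was -1.47 (SE 0.42, limma adjusted p = 0.0934) and that of Tbr1 -0.71 (limma adjusted p = 0.261). The exact permutation test gave p = 0.1 for both, the smallest possible with 3 against 3. Without SST0-M and SST1-M, Camk2a had a log2 fold change of -1.88 and passed (limma adjusted p = 0.0163).

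Its partner Camk2n1, an inhibitor of the kinase, was lower in the dated samples (log2 fold change -1.53, limma adjusted p = 0.04), as was Snap25 (-2.17, 0.0105). Those were the calls among 24 calmodulin partners and 14 pan-neuronal genes, and no gene of the layer factor, pyramidal or GABAergic lists was called by limma, with 1 of each list under an unadjusted p of 0.05. Slc17a7 differed by 0.08 (95% interval -1.20 to 1.37) and Neurod2 by 0.17 (-0.62 to 0.95), with dated and numbered values overlapping for both.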

How the data were processed

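RNA-seq was performed on FACS-sorted tdTomato-positive cells, with samples grouped by their labels. The authors deposited FPKM values. Their methods name HISAT2 and StringTie on mm10, and also TopHat2 with mm9, and the submitters' processing notes name TopHat2, Cufflinks and Cuffdiff. ComBat is named, without saying if it touched the deposited table. The methods state a planned range of reads per sample, and counts were not used here, so the depth of each library is unknown.

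Values were taken as log2(FPKM + 1), a pseudocount of 1. Pairs of libraries whose log2 ratios (genes over 5 FPKM) varied by less than 10% of the SD seen in the next closest pair were averaged. For genes with a mean above 0.4 FPKM, differences were tested by limma 3.58.1 (R 4.3.3) with the trend and robust options; tests were two-sided, p-values were adjusted over all genes by Benjamini-Hochberg, and the threshold was 0.05. The procedure was tested on simulated data. Exact permutation tests used scipy 1.17.1. The study counts its samples as mice, but the labels do not tie each library to an animal, so p-values measure the spread between these samples, which may in part be technical.

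The members, gene lists and alternatives were chosen with earlier results of these data known. Named genes were the members, the most abundant gene of each list, the largest called changes of each list (at most 4 per direction), Gad1, Gad2, Slc32a1, Sst, Pvalb and the 5 genes most alike to the members. Slc17a6, Slc1a2 and Xist were mentioned after their values were seen. A few genes covered by this rule are not reported here, while counts and means over lists include them.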

Additional observations from a re-analysis of the deposited data

Results flagged for a closer look

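A sample stood far from the others of its group, by Dixon's test at the 95% level, for 8 of 18 combinations of gene and group tested, where chance gives about 1 in 20. The averaged PV0-M and PV2-M were lowest among the Pvalb samples for Camk2a (21.2 FPKM), Slc17a7 (1.48 FPKM), Nrgn (3.51 FPKM) and Neurod6 (0.106 FPKM). SST-F was highest among the female Sst samples for Camk2a (215.8 FPKM), Tbr1 (5.74 FPKM) and Neurod6 (2.94 FPKM). The averaged SST0-M and SST1-M were highest among the male Sst controls for Nrgn (57.5 FPKM). The difference between Sst and Pvalb without these samples is given with that comparison.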

How the results depend on the processing

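Of the alternatives run, none called a member in limma for sex or stress. Between Sst and Pvalb 3 members were called by the main test, 6 without PV0-M and PV2-M, with or without SST-F as well, 5 by the unadjusted exact permutation test, and 0 with male Sst controls alone or without the high-Xist libraries, and leaving out any other single sample gave 3 to 5 calls (5 without SST-F). With each library kept as a sample 2 were called, and Camk2a (-1.87, limma adjusted p = 0.0548) was not, while quantile normalization gave 4 and numbered Sst controls alone 3. Leaving out samples for sex and for Sst and Pvalb, controls for stress, or SST-F together with a pair was chosen after seeing the data. Over all genes the calls were 1699 for sex and 667 to 3552 with 1 sample left out, 1133 and 389 to 2130 for Sst and Pvalb, 585 and 54 to 1962 for title kinds (1110 with quantile normalization), and 1 and 1 to 3 for stress. For sex the unadjusted exact test gave 1 call (Neurod2), and for title kinds leaving out SST0-M and SST1-M gave 1 (Camk2a), where leaving out each other sample gave 0.

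The title number was also fitted as a replicate block, over 3 shared numbers. Correlations of same-numbered samples were -0.015, -0.039 and -0.016 for sex and 0.198, 0.167 and 0.064 for Sst and Pvalb, and 0 of 6 and 5 of 6 samples correlated best with their own number, so the numbers were not taken to pair samples. With the replicate block, as with the same 6 samples without it, 0 members were called between Sst and Pvalb, and for those samples Nrgn was at 0.07 on the log2 scale between Sst and Pvalb, and Slc17a7 at -0.42, Camk2a at -0.90 and Tbr1 at -0.55 between the sexes. Across all genes the block gave 11 and 9 calls, and its absence in the same samples 24 and 10.

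The log2 fold changes below, and those just given, turned sign and were not past the threshold, before or after, and the cause was not tested. For sex, Slc17a7 turned to -0.19 with quantile normalization, -0.21 without SST0-M and SST1-M and -0.41 without SST-F as well. Camk2a turned to -0.50 against numbered males and to -0.09 without SST-F and that pair. Neurod6 turned to -0.44 with a pseudocount of 0.1, -0.16 with quantile normalization, -0.05 without the pair and -0.17 against dated males. Tbr1 turned to -0.03 (pseudocount 0.1), -0.13 (quantile normalization), -0.05 (each library kept as a sample), -0.30 (numbered males) and -0.08 (without SST-F and the pair). Leaving out other single samples gave -0.16 to 0.16 for Slc17a7, -0.07 to 0.51 for Camk2a, -0.03 to 0.15 for Neurod6 and -0.23 to 0.18 for Tbr1.

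For stress, Slc17a7 turned to -0.01 (quantile normalization) and -0.08 (without SST0-M and SST1-M), Camk2a to 0.09 and Tbr1 to 0.07 (dated controls), and Neurod2 to 0.03 (each library kept) and 0.05 (numbered controls). Nrgn turned to 0.01 (pseudocount 0.1), 0.02 (common median), 0.08 (quantile normalization), 0.44 (without SST0-M and SST1-M), 0.26 (dated controls) and 0.42 (controls of both sexes). Leaving out other single samples gave -0.05 to 0.29 for Slc17a7, -0.17 to 0.21 for Neurod2 and -0.31 to 0.16 for Nrgn. For title kinds, Slc17a7 turned to -0.02 (pseudocount 5), -0.11 (quantile normalization) and -0.52 (without SST0-M and SST1-M), with -0.05 to 0.41 for other single samples, and Nrgn to 0.43 without that pair.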
